A study of Mus musculus with 6 samples.

Results

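The enzymes and remodellers that write, erase and act on histone and DNA marks were followed in mouse livers injured with DDC, a porphyrinogenic compound that damages bile ducts and brings a ductular reaction. Members were the genes whose symbols belong to the Kdm, Kmt2, Kat, Hdac, Chd, Ezh, Dnmt, Tet, Sirt, Setd or Prmt families, together with Eed and Suz12, which gave 81 of the 14499 genes in the table. The livers labelled Arid1a_KO_DDC carried a hepatocyte-specific knockout of Arid1a, and those labelled WT_DDC were wild type, with 3 libraries each. All were 10 weeks of age, on a mixed background (C57Bl/6; 129Sv), and were injured with DDC for 2 weeks. The labels do not name the Cre driver or say whether each library came from its own mouse. Each p-value is therefore set against the spread between libraries, part of which may be technical. Replicate 1 of both groups lacked the Y-linked transcripts that the other libraries held, as given below, so it did not share a mouse with them. Cells other than hepatocytes are in the tissue too and are not covered by the knockout.

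Histone tails are acetylated by lysine acetyltransferases and deacetylated by zinc-dependent deacetylases and sirtuins. They are methylated by SET domain and arginine methyltransferases and demethylated by the Kdm enzymes, while DNA methyltransferases and TET dioxygenases set and oxidise cytosine methylation. Arid1a is a DNA-binding subunit of the BAF complex, which slides and evicts nucleosomes and works on the same chromatin as these enzymes. The comparison asks whether transcripts of these other regulators depended on the genotype during injury.

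Levels are given as FPKM, fragments per kilobase of gene scaled to the number of mapped fragments, and lists of 3 values follow replicates 1, 2 and 3. Arid1a (chromosome 4, 133679008 to 133756769 on GRCm38) was at 6.61, 5.01 and 3.81 FPKM in knockout livers, against 7.85, 5.48 and 5.98 FPKM in wild-type livers. The groups overlapped, and a whole-gene value includes RNA of other cell types and of any exons that were not deleted, so it is no check of the labels. Between 11280 and 11712 genes per library reached 1 FPKM, and steps between low values put the other libraries at 0.906 to 1.16 times the depth of WT_DDC replicate 1. The 6 hepatocyte markers summed to 41816 to 50543 FPKM in knockout livers and 39487 to 42107 FPKM in wild-type livers. The 6 macrophage markers summed to 270 to 383 FPKM in knockout livers, against 437 to 570 FPKM in wild-type livers, and 0 of the 6 passed the limma test described below. The sums of the other cell type lists overlapped between the groups. Biliary markers summed to 208 to 420 FPKM in knockout livers and 126 to 386 FPKM in wild-type livers, and 1 of 6 passed the test, with the lower level in knockout livers. Endothelial markers summed to 26.6 to 67.8 FPKM in knockout livers and 47.5 to 75.7 FPKM in wild-type livers, and stellate markers to 26.99 to 43.0 FPKM in knockout livers and 42.2 to 47.3 FPKM in wild-type livers. T and NK cell markers summed to 2.65 to 11.9 FPKM in knockout livers and 9.37 to 13.7 FPKM in wild-type livers. B and plasma cell markers summed to values from 1.53 to 151 FPKM in knockout livers and from 53.7 to 109 FPKM in wild-type livers. Sums weigh the highest markers most. The median log2 difference of the tested markers, knockout minus wild type, was 0.096 for hepatocytes. It was -0.64 for biliary cells, -0.62 for macrophages, -0.40 for endothelial cells and -0.48 for stellate cells. For T and NK cells it was -0.38, and for B and plasma cells -0.81. In whole tissue, fewer cells of a type and less RNA per cell cannot be told apart, and the part of cell composition in the values below was not tested.

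Nearly all members were expressed at low to moderate levels. Of the 81 members, 76 had a mean of at least 1 FPKM over the 6 libraries, 36 a mean of at least 5 FPKM and 7 a mean of at least 20 FPKM. Those 7 were Sirt3 (mean 39.5 FPKM), Sirt2 (38.7), Setd3 (32.1), Hdac5 (30.0), Prmt1 (28.3), Sirt7 (24.1) and Chd3 (22.4). Sirt3 acts mainly in mitochondria, Sirt2 mainly in the cytoplasm and Sirt7 in the nucleolus, and the best known substrate of Setd3 is actin. The 10 highest members held 42.4% of the summed FPKM of all 81. The members' FPKM summed to 593, 659 and 655 in knockout livers and to 611, 610 and 636 in wild-type livers, and the groups overlapped. Kdm6bos, an antisense RNA gene at Kdm6b, was listed at 0 FPKM in every library. The member listed as Chd3os carries an identifier that GENCODE M21 annotates as the protein-coding gene Rnf227, and it stayed between 0.0818 and 0.555 FPKM.

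**Figure D1:**
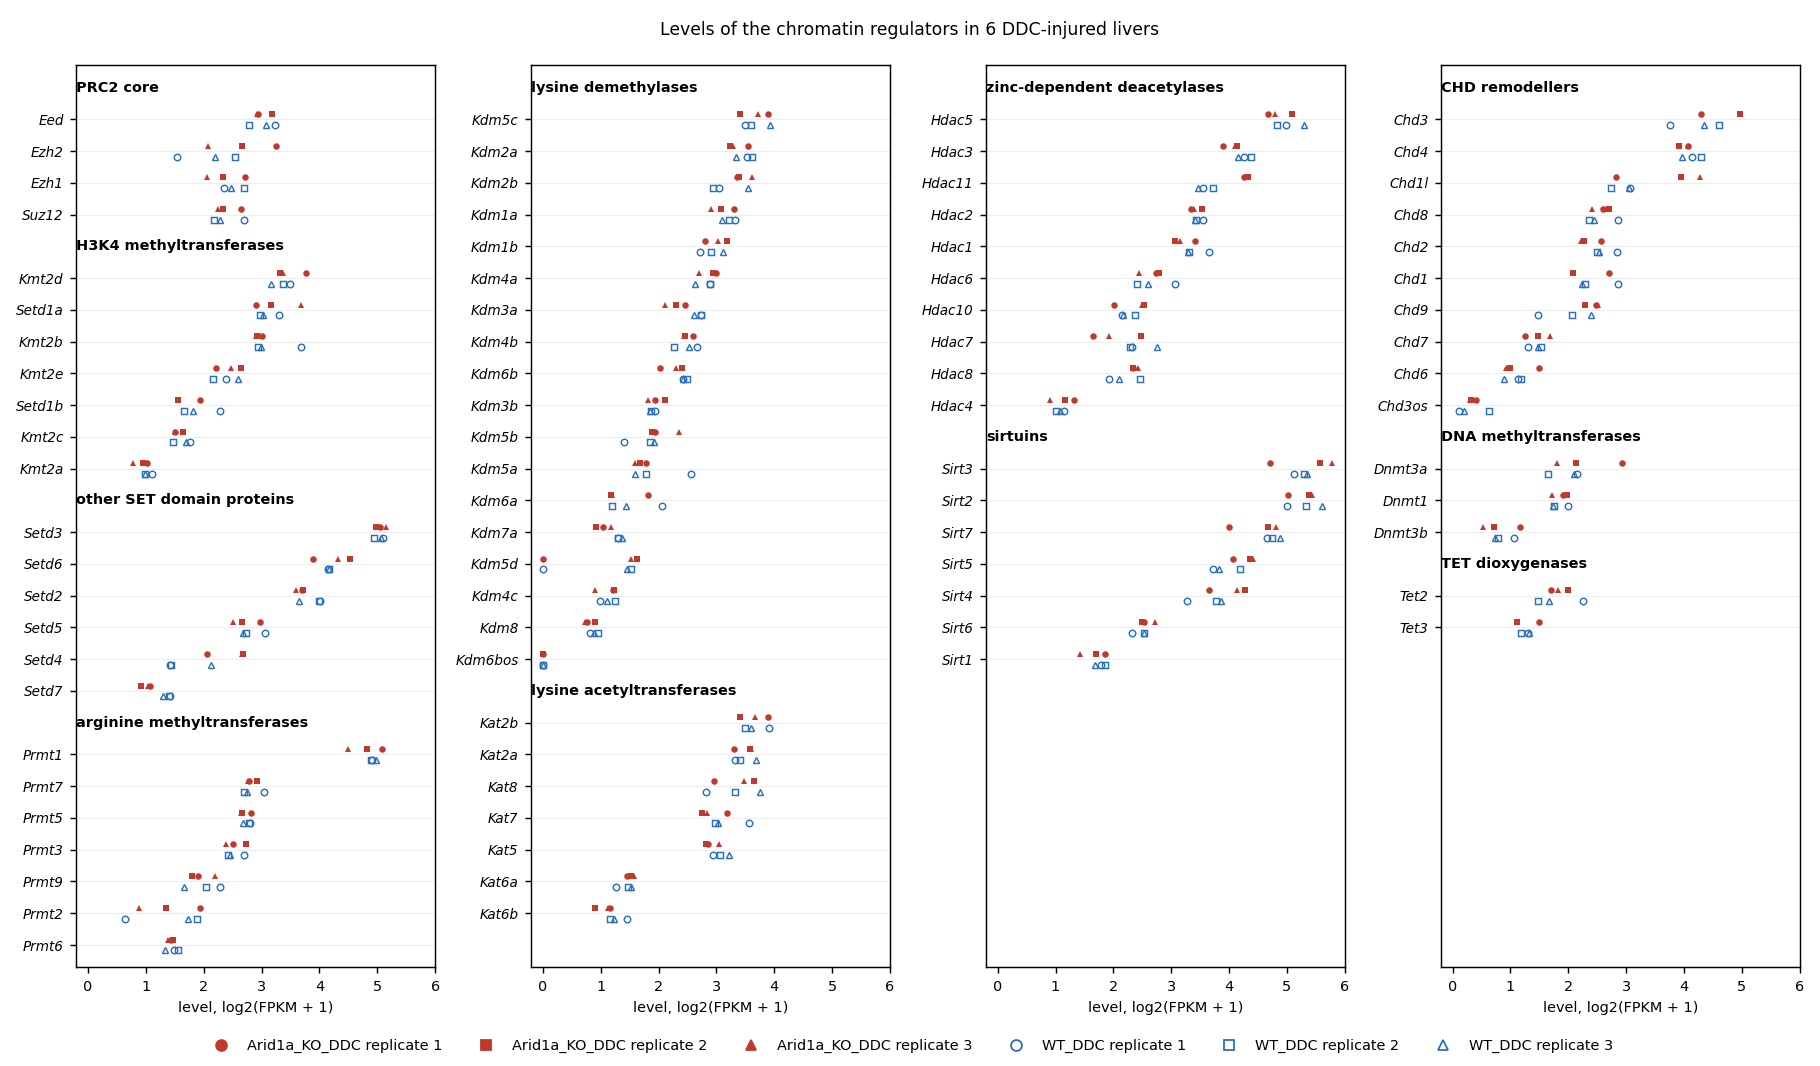
Level of each of the 81 members in each library, as log2(FPKM + 1), by family and in order of mean level. Filled red symbols are the 3 knockout livers, open blue symbols the 3 wild-type livers, and the shape gives the replicate number. The knockout and wild-type symbols of most members lie over one another, and those of Hdac11 do not.

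No member passed the test for genotype. Genes with at least 1 FPKM in at least 3 of the 6 libraries were tested with limma on log2(FPKM + 1), and 76 members were among the 11839 tested. By limma 0 members were higher and 0 were lower at an adjusted p under 0.05, against 0.135% of all tested genes higher and 0.355% lower (0.49% in either direction). With an unadjusted p under 0.05 there were 2 members on the higher side (Hdac11 and Setd4) and 2 on the lower side (Kdm3a and Setd7), against 4.65% and 6.5% of all tested genes. The members' log2 differences, knockout minus wild type, had a median of -0.0049, against 0.0034 over all tested genes, and 37 of 76 were positive. Their median size regardless of sign was 0.11, against 0.19 over all tested genes, at a median level of 4.79 FPKM against 7.91 FPKM. The spread within groups had a median SD of 0.22 on the log2 scale for members and 0.24 for all tested genes.

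On the log2(FPKM + 1) scale the intervals bound most of the differences, but this scale understates those of low genes. Hdac4, at a wild-type mean of 1.07 on it, could fall by little more than 1 even if lost. Members were lower in level than all tested genes, so their share of bounded intervals is not a like comparison with the share of all genes. The 95% limma interval lay within 1 log2 unit of 0 on either side for 67 of 76 members (88.2%, against 78.1% of all tested genes), and within 0.5 for 27. The other 9 intervals, which reached past 1 log2 unit, were those of Setd4, Chd1l, Hdac11, Ezh2, Chd3, Chd9, Dnmt3a, Hdac7 and Kdm5d. Of these, 5 had a difference above 0.5 in size (Setd4, Chd1l, Hdac11, Ezh2 and Chd3), which is 6.58% of the tested members, against 13.9% of all tested genes. The groups did not overlap for 1 member in the direction of higher knockout (Hdac11) and 6 in the direction of lower knockout (Kdm3a, Setd7, Kdm7a, Hdac3, Kat6b and Kdm6b). The shares among all tested genes were 7.09% and 9.56%, so neither count stands above the background.

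**Figure D2:**
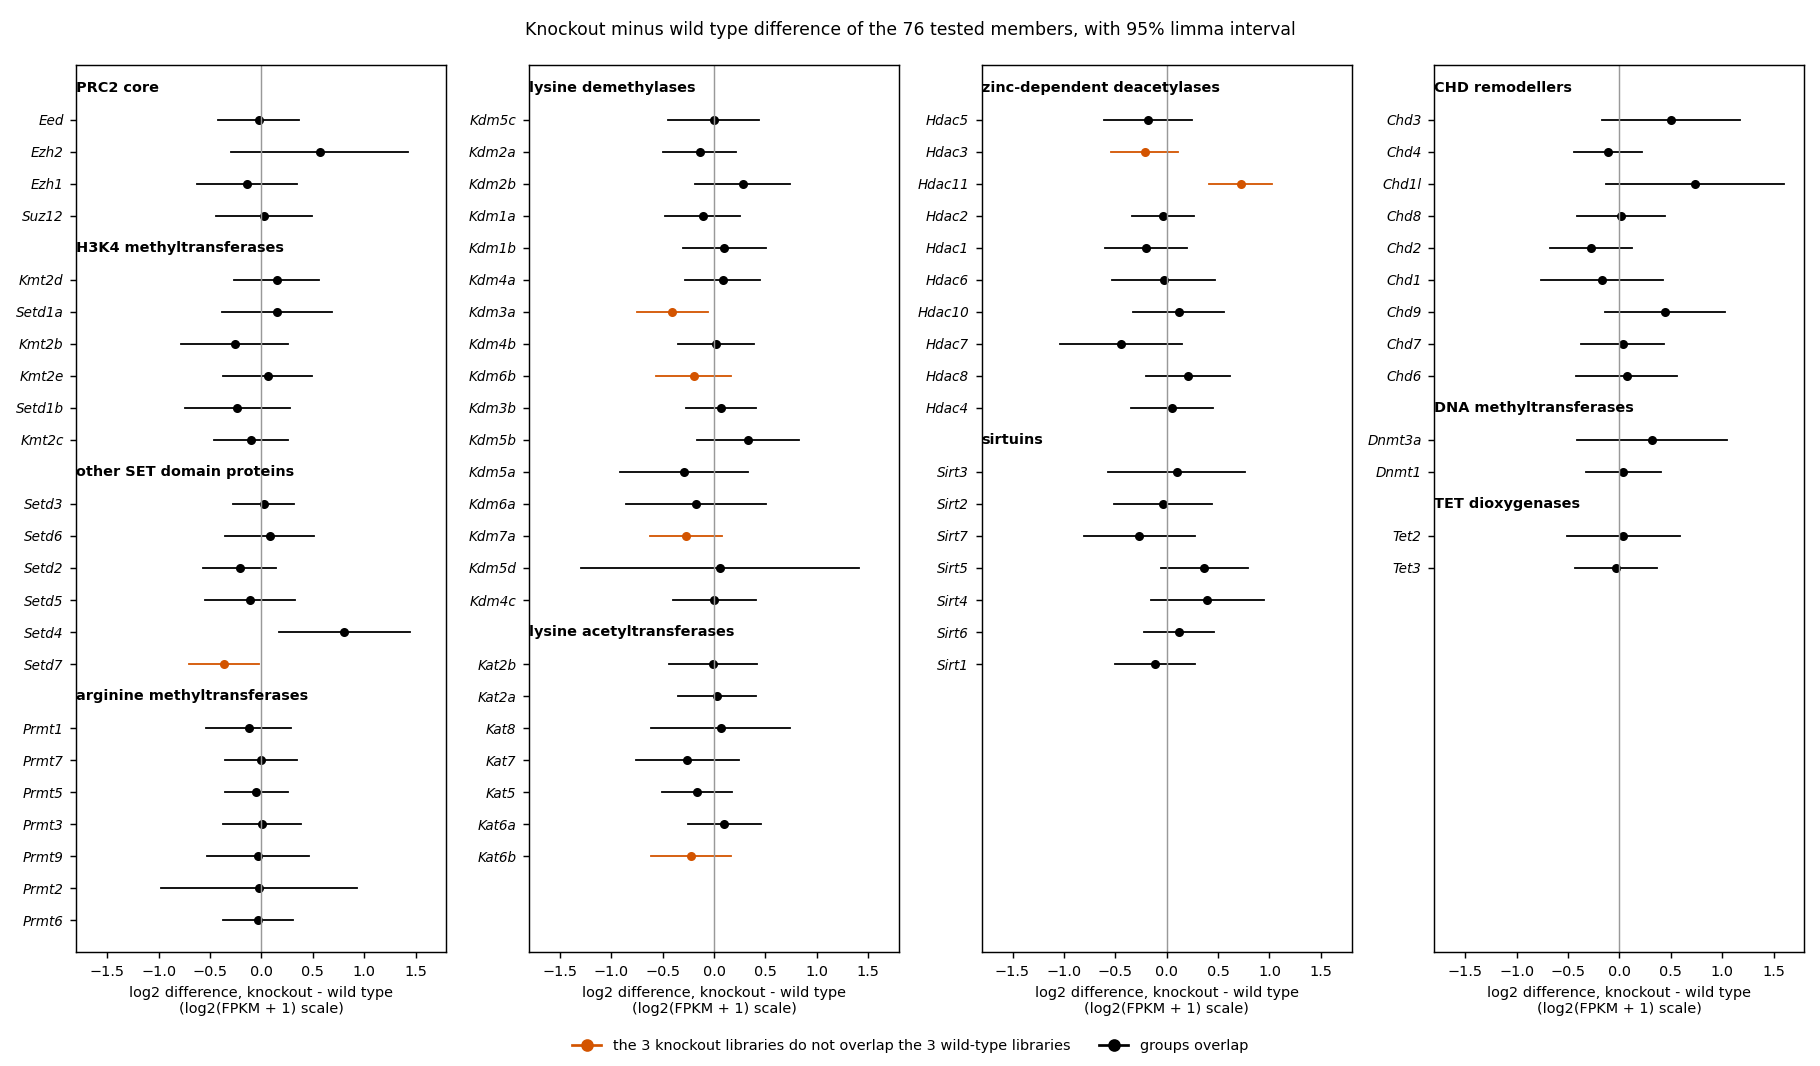
Log2 difference between knockout and wild-type livers for each of the 76 tested members, on the log2(FPKM + 1) scale, with its 95% limma interval (n = 3 libraries each). Orange marks the 7 members whose groups do not overlap. Of these, Hdac11 at 0.72 lies right of 0 and the 6 others lie left of it, between -0.41 and -0.20.

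Among the zinc-dependent deacetylases, Hdac11 had the smallest p of all members. Hdac11 encodes the class IV deacetylase, which also removes long-chain fatty acyl groups from lysine. It was at 18.1, 19.1 and 18.5 FPKM in knockout livers, against 10.6, 12.1 and 9.99 FPKM in wild-type livers. Every knockout library lay above every wild-type library, with means of 18.6 ± 0.510 and 10.9 ± 1.09 FPKM (SD, n = 3 each). The log2 difference was 0.72 (SE 0.13, 95% interval 0.41 to 1.02), and it missed the threshold over all genes (limma adjusted p = 0.0951). Over the alternatives the difference stayed between 0.57 and 0.79, with adjusted p-values of 0.0745 to 0.404. A separate gene model of 594 bases on the opposite strand, Gm44002, lies wholly within an Hdac11 exon. It was at 25.5, 27.3 and 30.9 FPKM in knockout livers and 13.4, 20.6 and 17.7 FPKM in wild-type livers. The sources used here do not say whether strand was used in counting, and without strand the reads of the pair cannot be told apart.

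The promoter window of Hdac11 is shown because this member stood closest to the threshold and the series title concerns YAP, which binds DNA through TEAD factors. The window holds 300 bases, from upstream of the RefSeq start to shortly after it (GRCm38.p6, chr6:91156565-91156864, plus strand), and the capitals mark the core TEAD motif, GGAATG.
Hdac11: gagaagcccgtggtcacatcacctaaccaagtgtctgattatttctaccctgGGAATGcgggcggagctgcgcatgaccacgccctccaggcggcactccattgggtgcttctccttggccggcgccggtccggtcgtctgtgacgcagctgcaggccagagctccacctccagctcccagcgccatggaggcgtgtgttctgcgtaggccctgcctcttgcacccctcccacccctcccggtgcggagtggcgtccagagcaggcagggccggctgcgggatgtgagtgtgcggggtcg
Searched as GGAATG on one strand or CATTCC on the other, the motif occurs in 14.7% of the 32851 RefSeq promoter windows and in 11 of the 85 windows (12.9%) of the 63 members that have one. Of the 5 non-overlapping members with a window, Hdac11 held the motif in its 1 window. The 2 windows of Kat6b, 3 of Kdm3a, 1 of Kdm7a and 1 of Setd7 did not hold it. These members were picked from the same data and are too few to set against the shares above. A match is a description of the letters and not a binding site.

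The other deacetylases had smaller differences. Hdac5, a signal-responsive class IIa enzyme and the highest of the family, was at 24.5, 33.0 and 26.6 FPKM in knockout livers, against 30.5, 27.4 and 38.1 FPKM in wild-type livers, and the groups overlapped. Hdac3, the catalytic subunit of the NCoR corepressor complex, was chosen after its values were seen. It was at 13.9, 16.5 and 16.1 FPKM in knockout livers, against 18.0, 19.8 and 16.8 FPKM in wild-type livers. These groups did not overlap, by a margin of less than 1 FPKM (log2 difference -0.22, SE 0.14, limma adjusted p = 0.613). The class I enzymes Hdac1 and Hdac2 had differences of -0.20 and -0.035. Over the 10 tested members of the family the median was -0.032 and the range -0.45 (Hdac7) to 0.72 (Hdac11).

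The sirtuins, NAD-dependent deacylases, were the family with the highest levels. Sirt3, the main mitochondrial deacetylase, was at 25.02, 46.4 and 54.0 FPKM in knockout livers, against 33.8, 38.0 and 39.8 FPKM in wild-type livers. The knockout values spread on both sides of the wild-type range (log2 difference 0.098, SE 0.28, limma adjusted p = 0.925). Sirt5, a mitochondrial enzyme that removes succinyl groups, had the smallest p of the family. It was at 15.7, 19.5 and 20.4 FPKM in knockout livers, against 12.2, 17.3 and 13.2 FPKM in wild-type livers. The groups overlapped at 1 wild-type library (0.37, SE 0.18, limma adjusted p = 0.503). The nuclear Sirt1 and Sirt6 were lower in level, with means over all libraries of 2.31 and 4.77 FPKM and differences of -0.11 and 0.12. Part of the Sirt3 exons is shared with the opposite-strand genes Ric8a (418 bases) and Psmd13 (342 bases).

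The lysine acetyltransferases had differences of -0.26 to 0.10, with a median of -0.011 over 7 members. Kat2b, an acetyltransferase of histone H3 and the highest of the family, was at 13.8, 9.67 and 11.6 FPKM in knockout livers, against 13.98, 10.2 and 11.1 FPKM in wild-type livers. The groups covered nearly the same range. Kat6b, a MYST family enzyme, was at 1.22, 0.871 and 1.19 FPKM in knockout livers, against 1.76, 1.25 and 1.36 FPKM in wild-type livers. The groups did not overlap, but the nearest values, 1.22 and 1.25 FPKM, were close together (log2 difference -0.23, SE 0.16, limma adjusted p = 0.662).

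PRC2 methylates histone H3 at lysine 27 and has either Ezh2 or Ezh1 as its catalytic subunit. Ezh2, which is abundant in dividing cells, was at 8.51, 5.32 and 3.22 FPKM in knockout livers, against 1.91, 4.79 and 3.59 FPKM in wild-type livers. The groups overlapped, and both the highest and the lowest value came from a replicate 1 library. The log2 difference was 0.57 (SE 0.36, 95% interval -0.29 to 1.43, limma adjusted p = 0.614), and it was 0.0011 in the libraries L0602 to L0605 alone, which are replicates 2 and 3 of both groups. The 9 proliferation markers summed to 84.8, 144 and 104.8 FPKM in knockout livers, against 63.1, 77.0 and 81.6 FPKM in wild-type livers. These sums did not overlap between the groups, and the median log2 difference of the markers was 0.38. Of these markers 0 passed by limma, and their part in the Ezh2 values was not tested. Ezh1, the form typical of resting tissue, was at 5.59, 4.03 and 3.18 FPKM in knockout livers, against 4.13, 5.51 and 4.58 FPKM in wild-type livers, with overlap. The ratio of Ezh2 to Ezh1 was 1.52, 1.32 and 1.01 in knockout livers, against 0.462, 0.870 and 0.785 in wild-type livers. It was the 1 ratio without overlap among 5 ratios of related members, all chosen after the values were seen, and an exact permutation test of 3 against 3 libraries cannot go below 0.1. The shared subunits Eed and Suz12 had differences of -0.027 and 0.024. Eed was at 6.64, 8.03 and 6.54 FPKM in knockout livers, against 8.40, 5.92 and 7.47 FPKM in wild-type livers, and the groups overlapped.

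The methyltransferases of histone H3 lysine 4 had differences of -0.26 to 0.15 over 6 tested members. Kmt2d, which marks enhancers, was at 12.7, 9.02 and 9.33 FPKM in knockout livers, against 10.3, 9.29 and 7.98 FPKM in wild-type livers. The groups overlapped. Kmt2b, which acts at promoters, was at 7.01, 6.57 and 6.50 FPKM in knockout livers, against 11.9, 6.67 and 6.91 FPKM in wild-type livers. WT_DDC replicate 1 stood above all other libraries. The difference was -0.26 (SE 0.22, limma adjusted p = 0.711), and -0.019 without that library. Kmt2a, at 0.723 to 1.02 FPKM in knockout livers and 0.983 to 1.16 FPKM in wild-type livers, did not pass the filter on low values.

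The remaining SET domain members held 2 of the 4 genes with an unadjusted p under 0.05. Setd4, a little-studied lysine methyltransferase, was at 3.18, 5.45 and 5.32 FPKM in knockout livers, against 1.69, 1.71 and 3.36 FPKM in wild-type livers. WT_DDC replicate 3 lay just above knockout replicate 1, so the groups overlapped at that pair. The log2 difference was 0.81 (SE 0.27, 95% interval 0.18 to 1.44, limma adjusted p = 0.325). Setd7, a monomethyltransferase of histone H3 and of other proteins, was chosen after its values were seen. It was at 1.10, 0.883 and 1.05 FPKM in knockout livers, against 1.68, 1.64 and 1.45 FPKM in wild-type livers, without overlap (-0.36, SE 0.14, limma adjusted p = 0.421). Setd3, a histidine methyltransferase of actin, was at 32.1, 30.4 and 34.6 FPKM in knockout livers, against 33.3, 29.6 and 32.4 FPKM in wild-type livers. The groups overlapped, with a 95% interval of -0.27 to 0.32 around a difference of 0.024.

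The arginine methyltransferases lay close together, with differences of -0.12 to 0.0088 over 7 members. Prmt1, which makes most asymmetric dimethylarginine, was at 33.1, 27.4 and 21.4 FPKM in knockout livers, against 29.0, 28.5 and 30.6 FPKM in wild-type livers. The knockout values spread around the wild-type range (log2 difference -0.12, SE 0.18, limma adjusted p = 0.835). Prmt2, a coactivator of nuclear receptors chosen after its values were seen, was at 2.82, 1.56 and 0.845 FPKM in knockout livers, against 0.552, 2.68 and 2.31 FPKM in wild-type livers. Its highest and its lowest value both came from replicate 1.

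Among the lysine demethylases, 8 tested members had a positive and 8 a negative difference. Kdm3a, which removes methyl groups from histone H3 lysine 9, had the smallest p of the family. It was at 4.50, 3.93 and 3.35 FPKM in knockout livers, against 5.69, 5.69 and 5.13 FPKM in wild-type livers. Each knockout library lay below each wild-type library (log2 difference -0.41, SE 0.15, 95% interval -0.75 to -0.06, limma adjusted p = 0.369). Kdm7a, an eraser of lysine 9 and lysine 27 methylation chosen after its values were seen, had knockout values of 0.888 to 1.26 FPKM and wild-type values of 1.45 to 1.57 FPKM (-0.27, SE 0.15, limma adjusted p = 0.555). Kdm6b, a demethylase of lysine 27 induced by inflammatory signals in macrophages, was at 3.05, 4.31 and 3.95 FPKM in knockout livers, against 4.35, 4.60 and 4.36 FPKM in wild-type livers. These groups did not overlap either, but by less than 0.1 FPKM (-0.20, SE 0.15, limma adjusted p = 0.688). The macrophage markers summed to 383, 330 and 270 FPKM in the same knockout livers, against 570, 437 and 474 FPKM in the wild-type livers. Their part in the Kdm6b values was not tested.

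**Figure D3:**
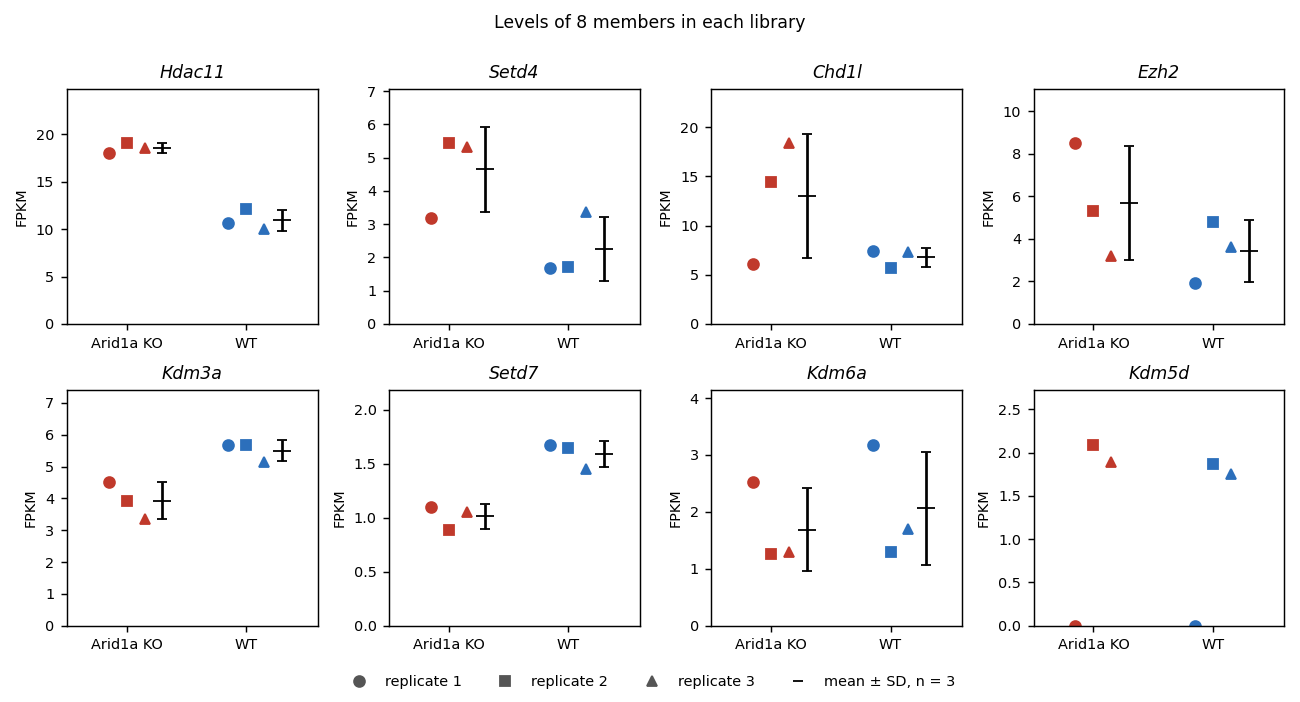
Level of 8 members in each library in FPKM, with knockout livers left of wild-type livers and symbols giving the replicate number. Bars are the mean ± SD of 3 libraries, and none is drawn for Kdm5d, which is listed at 0 in replicate 1 of both groups. Hdac11, Kdm3a and Setd7 separate the groups, while Setd4, Chd1l, Ezh2, Kdm6a and Kdm5d differ between replicate 1 and the other libraries in at least 1 group.

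Kdm5d and Kdm6a followed the replicate number and not the genotype. Kdm5d, the Y-linked demethylase of lysine 4, was listed at 0, 2.09 and 1.89 FPKM in knockout livers, against 0, 1.86 and 1.76 FPKM in wild-type livers. The Y-linked Ddx3y was at 0.0227, 11.3 and 11.1 FPKM in knockout livers, against 0.0527, 9.27 and 10.8 FPKM in wild-type livers, so replicate 1 of both groups lacked Y-linked transcripts. Kdm6a, an X-linked demethylase of lysine 27 known to escape X inactivation, was at 2.52, 1.25 and 1.29 FPKM in knockout livers, against 3.18, 1.29 and 1.70 FPKM in wild-type livers. Both replicate 1 libraries were above all others. Kdm5c, the X-linked partner of Kdm5d and also an escapee, was at 13.9, 9.57 and 12.2 FPKM in knockout livers, against 10.3, 11.2 and 14.2 FPKM in wild-type livers. It showed no such split.

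In replicate 1, Kdm5d was listed at 0 beside 13.9 FPKM of Kdm5c in the knockout liver and 10.3 FPKM in the wild-type liver. The stretch around their longest identical run is shown because reads of a close pair can be split between its members. The longest run shared by the transcripts Kdm5d-201 (chromosome Y) and Kdm5c-203 (chromosome X) of GENCODE M21 is 35 bases, marked in capitals within a coding window of 75 bases.
Kdm5d: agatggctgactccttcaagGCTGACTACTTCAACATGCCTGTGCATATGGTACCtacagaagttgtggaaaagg
Kdm5c: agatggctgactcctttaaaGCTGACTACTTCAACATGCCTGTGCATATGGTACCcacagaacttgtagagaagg
The windows are identical at 69 of 75 bases. Over all annotated transcripts, 13 of the 15161 distinct 25-base words of Kdm5d occur in Kdm5c, and 0 of its 15294 words of 50 bases do. Between Kdm6a and its Y-linked partner Uty, 12 of 8565 words of 50 bases are shared.

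The CHD remodellers are ATPases that move nucleosomes, and their 9 tested members had differences of -0.28 (Chd2) to 0.73 (Chd1l). Chd1l, a remodeller activated by poly(ADP-ribose), was at 6.10, 14.5 and 18.4 FPKM in knockout livers, against 7.38, 5.64 and 7.31 FPKM in wild-type livers. Knockout replicates 2 and 3 lay far above every wild-type library and knockout replicate 1 within their range. Over all libraries the log2 difference was 0.73 (SE 0.36, 95% interval -0.13 to 1.6, limma adjusted p = 0.512), and with only L0602 to L0605 it was 1.22 (limma adjusted p = 0.0842). It was 1.16 without Arid1a_KO_DDC replicate 1 and 0.44 without Arid1a_KO_DDC replicate 3. Chd3, an ATPase of the NuRD deacetylase complex, was at 18.6, 30.2 and 30.3 FPKM in knockout livers, against 12.5, 23.5 and 19.4 FPKM in wild-type livers. The groups overlapped (log2 difference 0.50, SE 0.28, limma adjusted p = 0.569). The main NuRD ATPase, Chd4, had a difference of -0.11.

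The enzymes of cytosine methylation were low and did not separate the groups. Dnmt1, which copies methylation at replication, was at 2.76, 2.94 and 2.31 FPKM in knockout livers, against 2.99, 2.39 and 2.35 FPKM in wild-type livers. Its 95% interval of -0.33 to 0.40 lies around a difference of 0.038. Dnmt3a, which methylates new sites, was at 6.57, 3.39 and 2.49 FPKM in knockout livers, against 3.45, 2.13 and 3.30 FPKM in wild-type livers. Knockout replicate 1 stood alone above the others (0.32, SE 0.31, limma adjusted p = 0.750), and without it the difference was -0.00065. Dnmt3b stayed between 0.440 and 1.23 FPKM and was not tested. Tet2, a dioxygenase of methylcytosine, was at 2.26, 3.004 and 2.55 FPKM in knockout livers, against 3.79, 1.79 and 2.18 FPKM in wild-type livers. The wild-type values enclosed the knockout values. Tet3, its relative, was at 1.81, 1.17 and 1.16 FPKM in knockout livers, against 1.48, 1.27 and 1.502 FPKM in wild-type livers, and here the knockout values enclosed the wild-type values.

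By count, the split between replicate 1 and the other libraries reached more members than the genotype did. The same held over all tested genes (28.4% against 16.6%). The counts are not fully alike. The unequal split of replicate 1 parts libraries by chance more often than the equal genotype split, and its difference carries more noise. Replicate 1 of both groups has the library identifiers L0566 and L0567, and the other libraries L0602 to L0605, and nothing in the labels says what the identifiers stand for. Both replicate 1 libraries lay above all other libraries for 15 tested members (19.7%, against 11.3% of all tested genes) and below them for 13 (17.1%, against 17.2%), which makes 28 members outside (36.8%, against 28.4%). The difference between replicate 1 and the others, averaged over the genotypes, had a median size of 0.21 log2 units for members and was larger than the genotype difference for 51 of 76 (67.1%, against 56.4% of all tested genes). Sirt2, Sirt3, Sirt4 and Sirt7 were below, while Suz12, Kmt2b, Kmt2d, Setd1b, Chd1, Chd2, Kat7, Hdac1 and Dnmt3a were among those above. For Kmt2b, knockout replicate 1 at 7.01 FPKM was just above wild-type replicate 3 at 6.91 FPKM. For Dnmt3a, wild-type replicate 1 at 3.45 FPKM was just above knockout replicate 2 at 3.39 FPKM. For Chd2, knockout replicate 1 at 4.93 FPKM was just above wild-type replicate 3 at 4.79 FPKM. For Sirt7, wild-type replicate 1 at 24.1 FPKM was just below knockout replicate 2 at 24.5 FPKM. Counting untested members too, the 17 above had a median annotated exon length of 8383 bases, the 13 below 5148 bases and the 51 others 6755 bases. The same order held over all tested genes, with 4976, 3386 and 4134 bases. The part of sex, library set or RNA quality in this split was not tested. Because the split is balanced over genotype, a term for the library identifiers could be added, and with it 0 members passed by limma, 8 had an unadjusted p under 0.05 (10.5%, against 16.9% of all tested genes) and Hdac11 had an adjusted p of 0.0745. That fit called 92 of all 11839 genes, against 58 without the term.

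**Figure D4:**
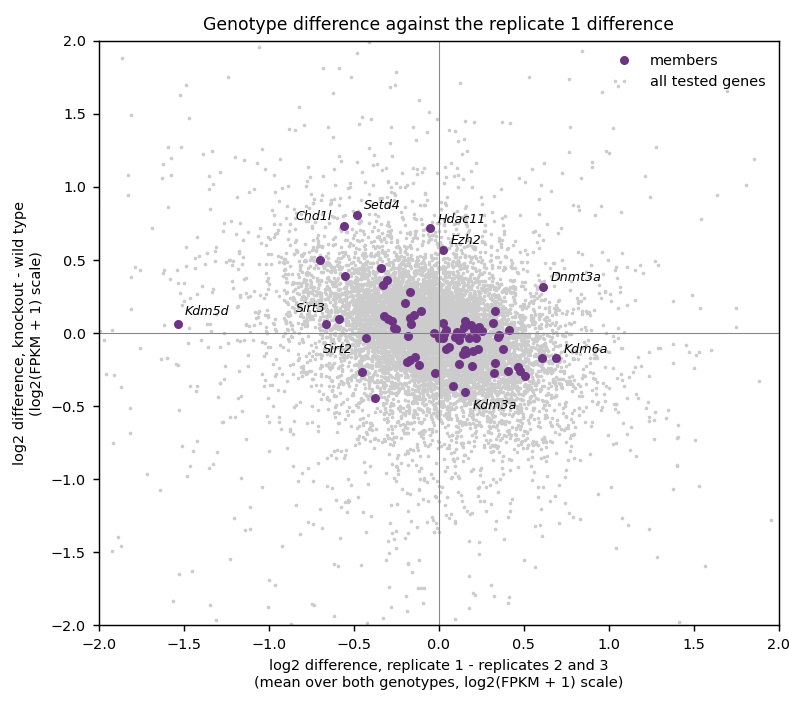
Genotype difference (vertical) against the difference between replicate 1 and replicates 2 and 3 (horizontal) on the log2(FPKM + 1) scale. Purple points are the 76 tested members and grey points all tested genes, of which 143 lie outside the plotted range. Members spread more along the horizontal than along the vertical axis, with Kdm5d far left and Kdm6a right, while Hdac11 lies high near the middle.

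A further list of 68 chromatin regulators outside these symbol families (other methyltransferases and acetyltransferases, Polycomb, NuRD, Sin3 and methyl-CpG binding proteins) gave the same count of calls. Of its 64 tested members 0 were higher and 0 lower at an adjusted p under 0.05 by limma, with 10 at an unadjusted p under 0.05 (15.6%, against 11.1% of all tested genes) and a median log2 difference of 0.020, against 0.0034 over all tested genes. Groups did not overlap for 9 in the direction of higher knockout (14.1%, against 7.09% of all tested genes) and for 6 in the direction of lower knockout (9.38%, against 9.56%). Bmi1, a Polycomb PRC1 subunit, had the smallest p and was at 11.5, 9.22 and 12.2 FPKM in knockout livers, against 7.25, 6.24 and 5.72 FPKM in wild-type livers (0.69, SE 0.16, limma adjusted p = 0.166). Mbd2, a methyl-CpG binding subunit of NuRD, was at 24.5, 23.1 and 27.3 FPKM in knockout livers, against 37.1, 35.1 and 38.1 FPKM in wild-type livers (-0.54, SE 0.13, limma adjusted p = 0.170). Both had groups without overlap and were chosen after their values were seen.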

How the data were processed

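The authors deposited 1 table of log2 FPKM for total liver RNA, and TopHat2 2.0.6, Cufflinks and the builds mm10 and GRCm38 are named, per the submitters' processing notes. No source used here states the annotation, strand setting or gene filter. An offset of 0.000977 FPKM, which makes 0 FPKM a log2 value of -10, was removed. Absolute depth is unknown, so no counting intervals are given. Values were taken to log2(FPKM + 1), which understates differences of low genes, and compared with limma 3.58.1 in R 4.3.3 (eBayes with trend, two-sided, Benjamini-Hochberg over all 11839 genes tested, threshold 0.05), after a check on simulated data. Members and lists were chosen with earlier results of these data known. Named with values were, in each of 11 families, the member with the smallest p and the one with the highest mean, and Ezh1, Ezh2, Dnmt1, Tet2, Kdm5c, Kdm5d, Kdm6a and Kdm6b (25 genes). Other genes named with values were chosen after their values were seen. Positions and exons are from GENCODE M21 on GRCm38, which held all 81 identifiers, and promoters are from RefSeq. Alternatives changed the pseudocount, filter, scaling, variance model, block, library term and libraries used.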

Additional observations from a re-analysis of the deposited data

How the results depend on the processing

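By limma 0 members passed under each of the alternatives run. At an unadjusted p under 0.05 there were 1 to 9 members. The 1 came without WT_DDC replicate 1 (1.33%, against 10.9% of all tested genes). The 9 came without Arid1a_KO_DDC replicate 1 (12%, against 16.8%). Over all genes the main fit called 58 of 11839 (0.49%). The calls came to 0 without Arid1a_KO_DDC replicate 3, 0 without WT_DDC replicate 3 and 4 without WT_DDC replicate 2. With so few calls over all genes, the members' 0 under any setting says nothing about stability. The median log2 difference of the members stayed between -0.0493 and 0.0311. The count of members without overlap between groups, 7, was 3 with a filter at FPKM 5 (7.89%, against 16.5% of all tested genes). It was 35 in the libraries L0602 to L0605 alone (46.7%, against 51.8%) and 10 to 30 with 1 library left out, where fewer libraries make overlap less likely. The 10 came without WT_DDC replicate 1 (13.3%, against 28.7%) and without WT_DDC replicate 2 (13.3%, against 24.6%). The 30 came without Arid1a_KO_DDC replicate 1 (40%, against 38.4%). With the replicate block, limma called 0 of all 11839 genes and 0 members, and 6 members had an unadjusted p under 0.05 (7.89%, against 14.5% of all tested genes). Same-numbered libraries had correlations of deviations of 0.346, 0.133 and 0.0212, and libraries of unlike number had -0.307 to 0.26. Only replicate 1, which holds the split described above, lay outside that range, so the numbers were not taken as pairs. Of 414 values of the named genes under alternatives, 383 kept their direction and 31, all for differences that did not pass, changed sign. Under quantile normalization these were Eed at 0.00029, Kat2b at 0.018, Kdm5c at 0.031 and Tet3 at 0.043. Kdm5c was at 0.0021 with median-of-ratios scaling, and Eed at 0.11 in the libraries L0602 to L0605 alone. With 1 library left out, log2 differences that changed sign covered -0.016 to 0.12 for Dnmt1, -0.00065 to 0.56 for Dnmt3a, -0.15 to 0.072 for Eed, -0.32 to 0.012 for Ezh1, -0.13 to 0.11 for Kat2b, -0.12 to 0.13 for Kdm5c, -0.44 to 0.59 for Kdm5d, -0.38 to 0.078 for Kdm6a, -0.27 to 0.033 for Prmt1, -0.024 to 0.066 for Setd3, -0.12 to 0.42 for Sirt3, -0.12 to 0.27 for Tet2 and -0.16 to 0.032 for Tet3. The causes were not tested.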
